A study of Mus musculus with 2 samples.

Results

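Haptoglobin (Hp), serum amyloid A3 (Saa3), serum amyloid A1 (Saa1) and lipocalin 2 (Lcn2) were followed through every cell class of dystrophic mouse muscle. They were 4 of the 24984 genes listed for both libraries. The 4 genes were chosen from earlier results on these same libraries, in which they stood out in stromal cells, so their levels in those cells are a description and were not tested. Muscle stroma is made largely of fibro/adipogenic progenitors (FAPs), the mesenchymal cells that lie between the fibers, lay down matrix and can turn into fibroblasts or fat cells.

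The data were single-cell RNA-seq libraries of hind limb muscle from mdx mice, which lack dystrophin and undergo chronic fiber damage and repair. Ctrl mice carried Pax7 CreERT2/R26YFP with Yy1 +/+, and dKO mice carried the same Cre and reporter with both Yy1 alleles floxed (Yy1 f/f). All mice received tamoxifen on 5 consecutive days at 1.5 months of age, and muscle was taken 1 month later. Each library pooled 3 mice, with 1 library per group, so no difference between groups could be set against a spread between mice and no test was run. The Cre is active in Pax7-expressing muscle stem cells (MuSCs), so FAPs and leukocytes of dKO mice kept intact Yy1 alleles.

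Acute phase proteins are plasma proteins whose synthesis changes in inflammation, and the liver is their main source. Interleukin-6 family cytokines act on hepatocytes through gp130 and STAT3, and interleukin-1 and tumor necrosis factor act through NF-kB and C/EBP factors. Hp binds free hemoglobin and hands it to the scavenger receptor CD163 on macrophages. Saa1 is the circulating serum amyloid A made by the liver, whereas Saa3 is made mostly in other tissues and by macrophages. Lcn2 binds bacterial siderophores and thereby withholds iron, and it is stored in the secondary granules of neutrophils.

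Values are counts of unique molecular identifiers (UMIs, 1 per captured RNA molecule) summed over the cells of a class and divided by all UMIs of that class, scaled to CPM (UMIs of the gene per megacount of UMIs). Intervals are exact Poisson or binomial 95% intervals, and they cover counting error only. The Ctrl library held 45556596 UMIs over 4527 barcodes and the dKO library 33815155 over 3483. After a minimum of 500 genes per cell and the removal of likely doublets, 4010 Ctrl and 3079 dKO cells remained, with medians of 7807 and 7852 UMIs. Cells were grouped without the 4 genes and named from marker lists, and a name ending in "-like" marks a class rebuilt in this way. The libraries shared 7 barcodes, and the cells with those barcodes held 10 UMIs of the 4 genes. Yy1 stood at 162 CPM in 122 Ctrl MuSC-like cells and at 3.86 CPM in 31 dKO MuSC-like cells (3 UMIs), against 124 and 134 CPM in FAP-like cells. All 10 genes of the FAP marker list were detected in the FAP-like class in both libraries.

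Hp lies on chromosome 8 at 109575128 to 109579172, on the minus strand (GRCm38). Saa3 (46711998 to 46715700) and Saa1 (46740497 to 46742980) lie in a cluster on chromosome 7, both on the minus strand, with Saa2 (46751790 to 46754313, plus strand) and Saa4 (46727998 to 46732603, minus strand). Lcn2 lies on chromosome 2 at 32384633 to 32388252, on the minus strand. None of the 6 genes overlaps another annotated gene. The longest coding transcripts of Saa1 and Saa2 are 87.3% identical, so how reads of the pair were divided is uncertain. The 250 bases upstream of the RefSeq start are shown for Saa3 and Saa1, because these neighbours of 1 cluster differed in the cell classes that held them. The Saa3 stretch is chr7:46715677-46715926 and the Saa1 stretch chr7:46742981-46743230, both on the minus strand of GRCm38.p6. Capitals mark matches to TTGCNNAA on either strand, a C/EBP-like motif.
Saa3: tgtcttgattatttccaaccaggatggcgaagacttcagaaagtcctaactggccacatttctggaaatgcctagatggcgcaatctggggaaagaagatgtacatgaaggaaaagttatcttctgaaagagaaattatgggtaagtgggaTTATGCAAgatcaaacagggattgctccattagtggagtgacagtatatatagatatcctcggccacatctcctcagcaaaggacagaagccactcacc
Saa1: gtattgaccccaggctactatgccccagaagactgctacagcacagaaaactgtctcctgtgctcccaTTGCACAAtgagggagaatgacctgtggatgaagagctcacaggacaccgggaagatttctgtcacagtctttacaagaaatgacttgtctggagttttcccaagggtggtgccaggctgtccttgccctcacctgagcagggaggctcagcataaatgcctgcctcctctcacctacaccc
The match lies 99 to 92 bases before the start in Saa3, on the opposite strand, and 182 to 175 bases before it in Saa1. The Lcn2 stretch, at chr2:32387740-32387989, holds 1 match of the same motif, TTGCTCAA, and the Saa2 stretch holds the same 8 bases as Saa1. Of 32851 mouse promoter stretches of this length, 9.56% hold the motif. A STAT-like motif (TTCNNNGAA, in 7.02% of all stretches) and the NF-kB-like motif (in 1.41%), searched on both strands, had no match in the stretches of Saa3, Saa1 or Lcn2. The Saa1 and Saa2 stretches are 94.8% identical.

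In FAP-like cells all 4 genes had higher levels in the dKO library. Hp was counted 146 times in 1120 Ctrl FAP-like cells (9.24 CPM, 7.80 to 10.9) and 1100 times in 1174 dKO FAP-like cells (67.2 CPM, 63.3 to 71.3). The dKO to Ctrl ratio of Hp was 7.27, with a counting interval of 6.11 to 8.70. Saa1 was counted 134 times in Ctrl (8.48 CPM) and 301 times in dKO (18.4 CPM), a ratio of 2.17 (1.76 to 2.68).

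Saa3 was counted 139 times in Ctrl FAP-like cells (8.80 CPM) and 296 times in dKO (18.1 CPM), a ratio of 2.05 (1.67 to 2.53). Lcn2 was counted 197 and 315 times (12.5 and 19.2 CPM), a ratio of 1.54 (1.29 to 1.85), and thus stayed under 2-fold. FAP-like cells held 100 or more UMIs of 10418 genes, of which 0.701% were at least 2-fold higher in dKO, and the median log2 ratio was -0.06. Of the 4 genes 3 were past 2-fold, but this contrast served to choose them. On the log2 scale Hp stood at rank 3 of these 10418 genes, Saa1 at rank 56, Saa3 at rank 68 and Lcn2 at rank 233. Leaving doublets in turned the direction of Lcn2, to a log2 ratio of -0.37, with 199 Lcn2 UMIs in Ctrl and 5 in dKO in the FAP-classed cells that were otherwise removed. A single Ctrl cell held 134 of the 199. Thinning every cell to 2000 UMIs turned the direction of Saa3, to a log2 ratio of -0.96, and put Saa1 at 0.84, under 2-fold. By the mean of the cells' CPM the log2 ratio of Saa3 was 0.063. Saa2 was counted 7 and 23 times, a ratio of 3.17 (1.32 to 8.75), and Saa4 was not counted in FAP-like cells of either library.

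**Figure D1:**
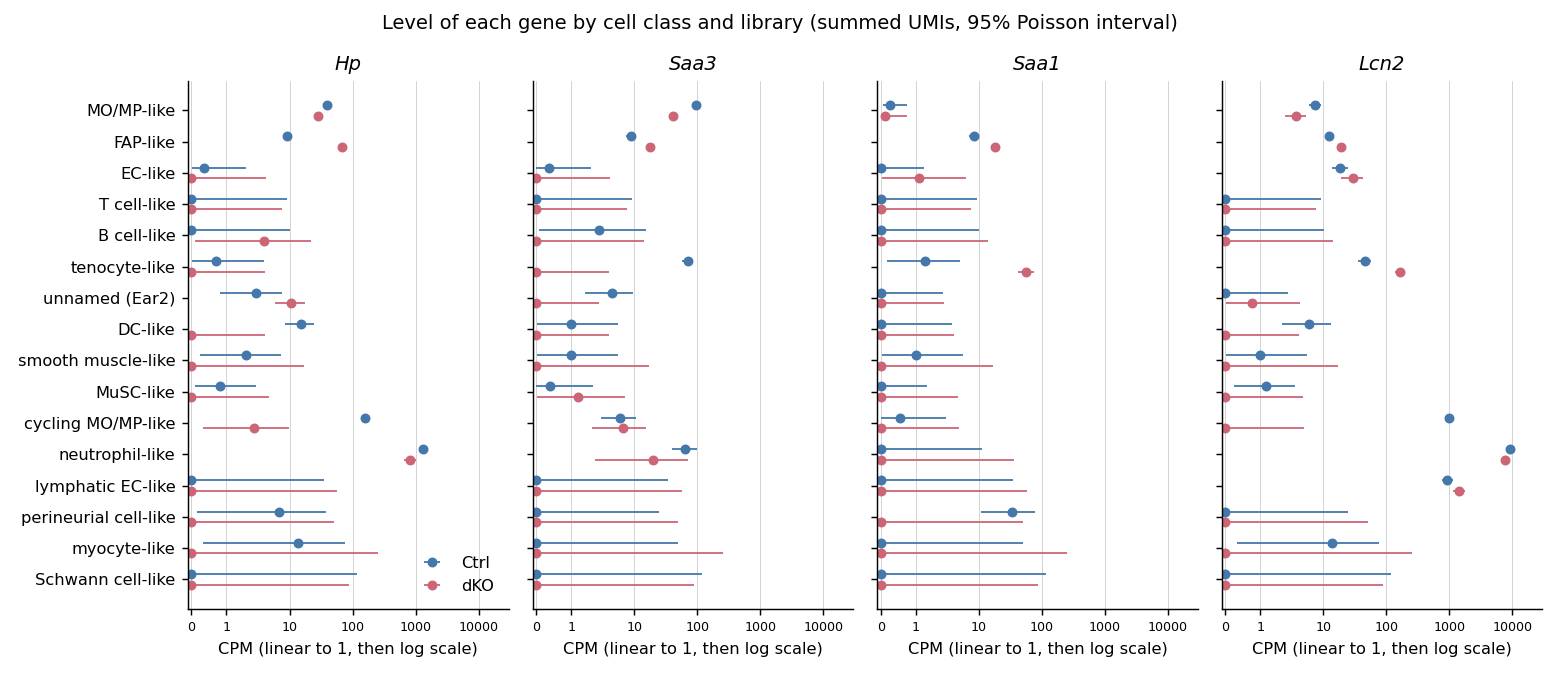
Level of Hp, Saa3, Saa1 and Lcn2 in each cell class, in CPM on a symmetric log axis, for the Ctrl and dKO libraries. Points are summed levels and bars are exact Poisson 95% intervals. Hp was highest in neutrophil-like cells in both libraries, and in FAP-like cells it stood at 9.24 CPM in Ctrl and 67.2 CPM in dKO.

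The share of each transcript that lay in FAP-like cells was compared next. FAP-like cells held 10.9% of all Hp UMIs in Ctrl (9.28 to 12.7) and 78.1% in dKO (75.9 to 80.3). For Saa3 their share was 10.0% and 48.9%, and for Lcn2 3.69% and 22.8%. Saa1 came mainly from FAP-like cells in both libraries, which held 91.8% of the Ctrl UMIs and 84.8% of the dKO UMIs. These shares also moved with the number of cells of other classes: neutrophil-like cells numbered 96 in Ctrl and 37 in dKO. The cycling MO/MP-like class, some of whose cells carried neutrophil genes, held 286 of 1340 Hp UMIs in Ctrl (21.3%, 157 CPM) and 2 of 1408 in dKO.

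Hp was highest per UMI in neutrophil-like cells, which store the protein in granules. It stood at 1292 CPM in Ctrl (423 UMIs) and 818 CPM in dKO (83 UMIs), a ratio of 0.63 (0.49 to 0.80). In the Ctrl library monocyte/macrophage (MO/MP)-like cells had 39.3 CPM of Hp and FAP-like cells less. In the dKO library this order was turned around, with 28.4 CPM in MO/MP-like and 67.2 CPM in FAP-like cells, and neither pair of intervals overlapped. Within MO/MP-like cells Hp was concentrated in the cluster led by Slpi, Chil3 and Clec4e, which held 391 of 458 UMIs in Ctrl and 160 of 208 in dKO. Endothelial cell (EC)-like cells had 1 Hp UMI in 471 Ctrl cells and 0 in 181 dKO cells (median 3802 UMIs), which allows a share of up to 1.66% of the latter with an Hp UMI at this depth but sets no limit on cells expressing it.

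MO/MP-like cells held 79.6% of all Saa3 UMIs in Ctrl and 49.8% in dKO, the latter beside 48.9% in FAP-like cells. Saa3 stood in MO/MP-like cells at 94.5 CPM in Ctrl (1102 UMIs) and 41.1 CPM in dKO (301 UMIs), a ratio of 0.43 (0.38 to 0.49). A single Ctrl cell held 455 of the 1102 UMIs. Among its 8446 UMIs were only 7 of Lyz2 and 0 of Cd68, both MO/MP markers. The cluster led by Slpi, Chil3 and Clec4e held 807 Saa3 UMIs in Ctrl and 131 in dKO, and the cluster led by Fcna and Cd163, genes of resident macrophages, held 217 and 118. Tenocyte-like cells had 101 Saa3 UMIs in Ctrl and 0 in dKO, but 100 of the 101 were in 1 cell, which also held 46 UMIs of the tendon gene Tnmd and 270 of Fmod.

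In the MO/MP-like class 0.615% of 8452 genes were at least 2-fold lower in dKO, and Saa3 and Lcn2 were among them. Without the Ctrl cell with 455 UMIs, Saa3 stood at 55.5 CPM in Ctrl against 41.1 CPM in dKO and was no longer 2-fold lower. Lcn2 stood at 7.46 CPM in Ctrl (87 UMIs) and 3.68 CPM in dKO (27 UMIs), a ratio of 0.49 (0.31 to 0.77). The Hp ratio was 0.72 (0.61 to 0.85), and Saa1 had only 3 and 1 UMIs. Thus Hp, Saa3 and Lcn2 had ratios above 1 in FAP-like cells and below 1 in MO/MP-like cells.

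Lcn2 was above all a neutrophil transcript. Neutrophil-like cells stood at 9288 CPM in Ctrl (3040 UMIs) and 7570 CPM in dKO (768 UMIs), 56.9% and 55.7% of all Lcn2 UMIs. The cycling MO/MP-like class held 1798 Lcn2 UMIs in Ctrl and 0 in dKO. Of these, 1782 were in 8 cells that also held 5449 UMIs of Camp and 4023 of Ngp, both granule genes of maturing neutrophils, with 116 of Mki67 and 0 of the macrophage genes Csf1r and Adgre1. The markers of these 8 cells thus went against the name of their class. A dKO cell with 454 Lcn2, 1241 Ngp and 1646 Camp UMIs was among those removed as doublets.

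Lcn2 was also present in stromal and vascular classes that held little Hp. Lymphatic EC-like cells had 98 UMIs in 18 Ctrl cells and 92 UMIs in 13 dKO cells (930 and 1438 CPM), the second highest level in dKO. In tenocyte-like cells Lcn2 stood at 45.6 CPM in Ctrl (65 UMIs) and 165 CPM in dKO (151 UMIs), a ratio of 3.61 (2.69 to 4.91), where 0.657% of 3043 genes were at least 2-fold higher in dKO. The dKO cell with most held 33 of these UMIs, with 42 of Tnmd and 278 of Fmod. In EC-like cells Lcn2 had 50 and 26 UMIs, of which 48 and 22 were in the cluster led by Selp, Sele and Csf3. The EC-like ratio of 1.61 had a counting interval that included 1 (0.96 to 2.63).

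Saa1 was nearly confined to stromal classes. Beside FAP-like cells, tenocyte-like cells had 2 UMIs in Ctrl and 52 in dKO, with 26 and 21 of the latter in 2 cells. Perineurial cell-like cells had 5 UMIs in 17 Ctrl cells and 0 in 11 dKO cells. Neutrophil-like cells had no Saa1 UMI in either library. The leading class by level differed from FAP-like cells beyond counting error in both libraries. In Ctrl perineurial cell-like cells (33.9 CPM, 11 to 79.0, from 5 UMIs) lay above FAP-like cells (7.11 to 10.1), and in dKO tenocyte-like cells (56.8 CPM, 42.4 to 74.4) lay above FAP-like cells (16.4 to 20.6), although 2 cells held most of the tenocyte-like UMIs.

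FAP-like cells that held the transcripts were few. A UMI of Hp was present in 69 Ctrl cells (6.16%) and 127 dKO cells (10.8%), of Saa3 in 15 and 24, of Saa1 in 40 and 41, and of Lcn2 in 80 and 100. FAP-like cells had medians of 12110 and 12080 UMIs. In T cell-like cells, which should lack Hp, it was found in 0 of 115 Ctrl and 0 of 136 dKO cells, which allows shares of cells with a UMI of up to 2.61% and 2.21% at medians of 3219 and 3081 UMIs. Thinned to 2000 UMIs per cell, with 63 and 54 shallower FAP-like cells left out, the share of cells with Hp was 1.89% in Ctrl (1.16 to 2.91) and 4.29% in dKO (3.18 to 5.64). The thinned shares were 0.57% and 1.16% for Saa3, 1.70% and 1.52% for Saa1, and 1.80% and 3.13% for Lcn2, each pair with overlapping intervals. For Saa1 the number of positive cells was thus alike, and the higher dKO sum came with 3.35 UMIs per positive cell in Ctrl and 7.34 in dKO.

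**Figure D2:**
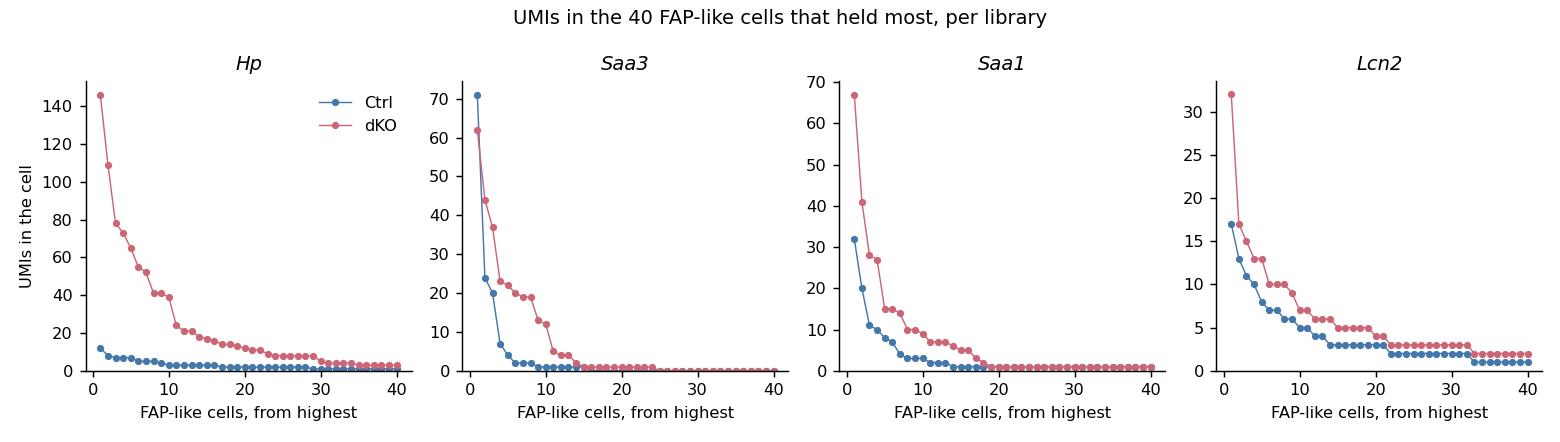
UMIs of each gene in the FAP-like cells that held most of it, ranked from the highest cell, for Ctrl and dKO. Both axes are linear, and the vertical scale differs between genes. The highest dKO cell held 146 Hp UMIs and the highest Ctrl cell 12.

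A large share of the UMIs sat in few cells. The 10 cells with most Hp held 43.2% of the Hp UMIs of Ctrl FAP-like cells and 63.6% of those of dKO. At least 5 Hp UMIs were found in 8 Ctrl and 30 dKO cells. For Saa3 such cells numbered 4 and 11, for Saa1 6 and 16, and for Lcn2 11 and 19. The 10 leading cells held 96.4% and 91.6% of Saa3, 75.4% and 78.4% of Saa1, and 45.7% and 43.2% of Lcn2. The dKO cell with 146 Hp UMIs held 15579 UMIs in all, among them 248 of Dcn and 5 of Pdgfra, which are FAP genes, and none of the leukocyte gene Ptprc.

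How far each ratio rested on these cells differed among the genes. Without the 10 leading cells of each library, the log2 ratio was 2.22 for Hp (from 2.86) and 0.69 for Lcn2 (from 0.63). For Saa1 it was 0.92 without 10 cells. Without 20 cells each remaining cell with Saa1 held 1 UMI, so the 20 and 21 UMIs left only counted the positive cells. For Saa3, 1 Ctrl cell held 71 of the 139 UMIs, and leaving out the leading cell of each library moved the log2 ratio from 1.04 to 1.73. Thus Hp and Lcn2 kept their direction when 20 cells per library were left out, with log2 ratios of 1.96 and 0.73, and Saa3 had 0 and 4 UMIs left.

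**Figure D3:**
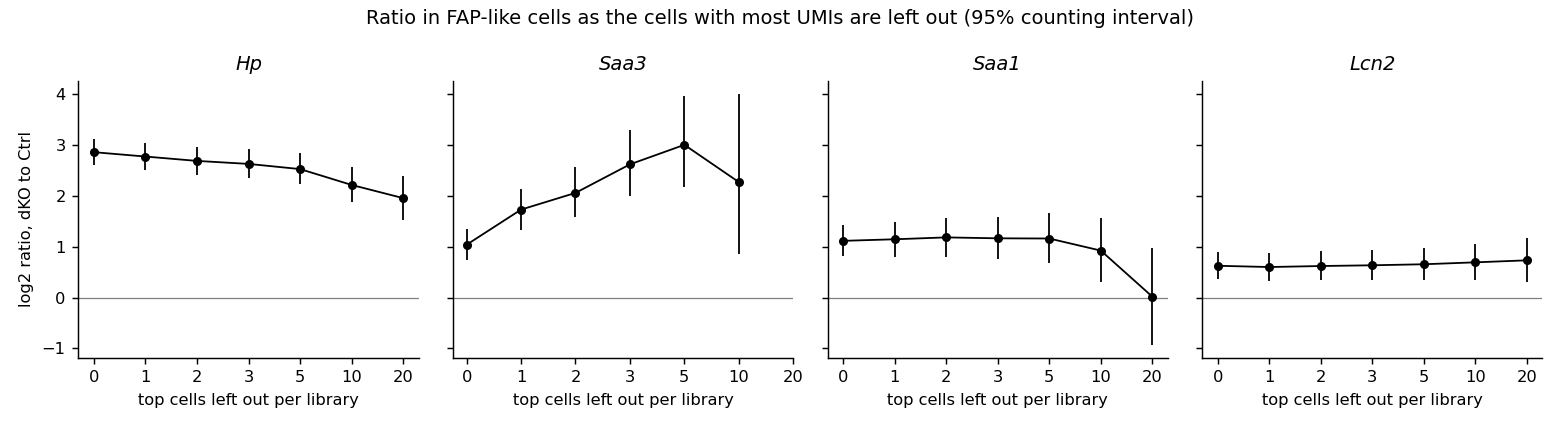
Log2 ratio of dKO to Ctrl in FAP-like cells after leaving out the cells with most UMIs of the gene in each library, from 0 to 20 cells. Bars are exact 95% counting intervals. Hp goes from 2.86 to 1.96 and Lcn2 from 0.63 to 0.73, and Saa3 has no value at 20 cells because no Ctrl UMI remained.

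FAP-like cells were then divided into subsets, again without the 4 genes, to see where in the stroma the transcripts lay. Hp was highest in Pi16-like cells, the Pi16+ Dpp4+ fibroblasts held to be progenitors of other fibroblasts. It stood there at 26.4 CPM in 137 Ctrl cells (18.3 to 36.8) and 243 CPM in 156 dKO cells (221 to 268). Of the 415 dKO UMIs, 146, 78 and 41 were in single cells, so this level rested largely on few cells. Pi16-like cells were 12.2% and 13.3% of FAP-like cells and held 23.3% and 37.7% of their Hp UMIs. In Stressed-like cells Hp stood at 9.64 and 65.4 CPM, and in Activated-like cells at 5.83 and 43.7 CPM. The ratio lay between 6.78 and 9.23 in these 3 subsets, with overlapping intervals, and was 3.81 (2.24 to 6.85) in cycling Activated-like cells. The highest cycling Activated-like cell held 12 of 17 Hp UMIs in Ctrl and 65 of 80 in dKO. With the 4 genes kept for clustering, the cluster of that name held only 35 Ctrl and 31 dKO cells, in place of 126 and 163, and its Hp level was 14.0 CPM in Ctrl and 0.0 CPM in dKO. The Parenchymal-like cluster led by Fmo2, whose cells had a median of 2150 UMIs, held 0 and 2 Hp UMIs.

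Lcn2 had the same leading subset. It stood at 45.0 CPM in Ctrl and 71.5 CPM in dKO in Pi16-like cells, a ratio of 1.59 (1.16 to 2.21), and at 19.6 and 28.1 CPM in Stressed-like cells. In Activated-like cells it was 7.33 and 7.09 CPM, a ratio of 0.97 (0.61 to 1.53). Cycling Activated-like cells had 10 UMIs in Ctrl and 35 in dKO (ratio 2.83, 1.37 to 6.41), and the smaller cluster of that name had 1.75 and 0.87 CPM.

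Saa1 was densest in the smallest subset, the Vit Clu-like cells led by Unc13c. The list genes enriched in them were Vit, Apod, Col9a2 and Osr2, without Clu. These 13 Ctrl and 10 dKO cells held 34 and 41 UMIs (347 and 564 CPM), of which 32 and 41 were in 1 cell each. In Pi16-like cells Saa1 had 5 UMIs in Ctrl and 83 in dKO, a ratio of 12.6 (5.17 to 39.7), in 5 and 10 cells. Stressed-like cells held 58 Saa1 UMIs in Ctrl (17.5 CPM) and 104 in dKO (27.3 CPM), the 104 including the highest cell, with 67. These levels depended on how the subsets were cut. With the 4 genes kept for clustering, the cluster named Stressed-like was led by C1qtnf3 rather than Clu and had 5.59 and 6.76 CPM. The Vit Clu-like cells, then including a further cluster led by Clu, had 54.5 and 63.2 CPM.

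The subset with most Saa3 UMIs in dKO was not the one with most Hp. In dKO, 145 of 296 Saa3 UMIs were in Activated-like cells (27.1 CPM) and 63 in cycling Activated-like cells (16.9 CPM), where Ctrl had 7 and 2. In the smaller cycling cluster found with the 4 genes kept for clustering, the dKO level was 0.87 CPM. Activated-like cells were led by C1qtnf3 and by the matrix genes Postn and Cthrc1. Pi16-like cells had 3 and 24 Saa3 UMIs. Because 7 dKO and 3 Ctrl Activated-like cells held all Saa3 of that subset, these levels describe few cells.

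**Figure D4:**
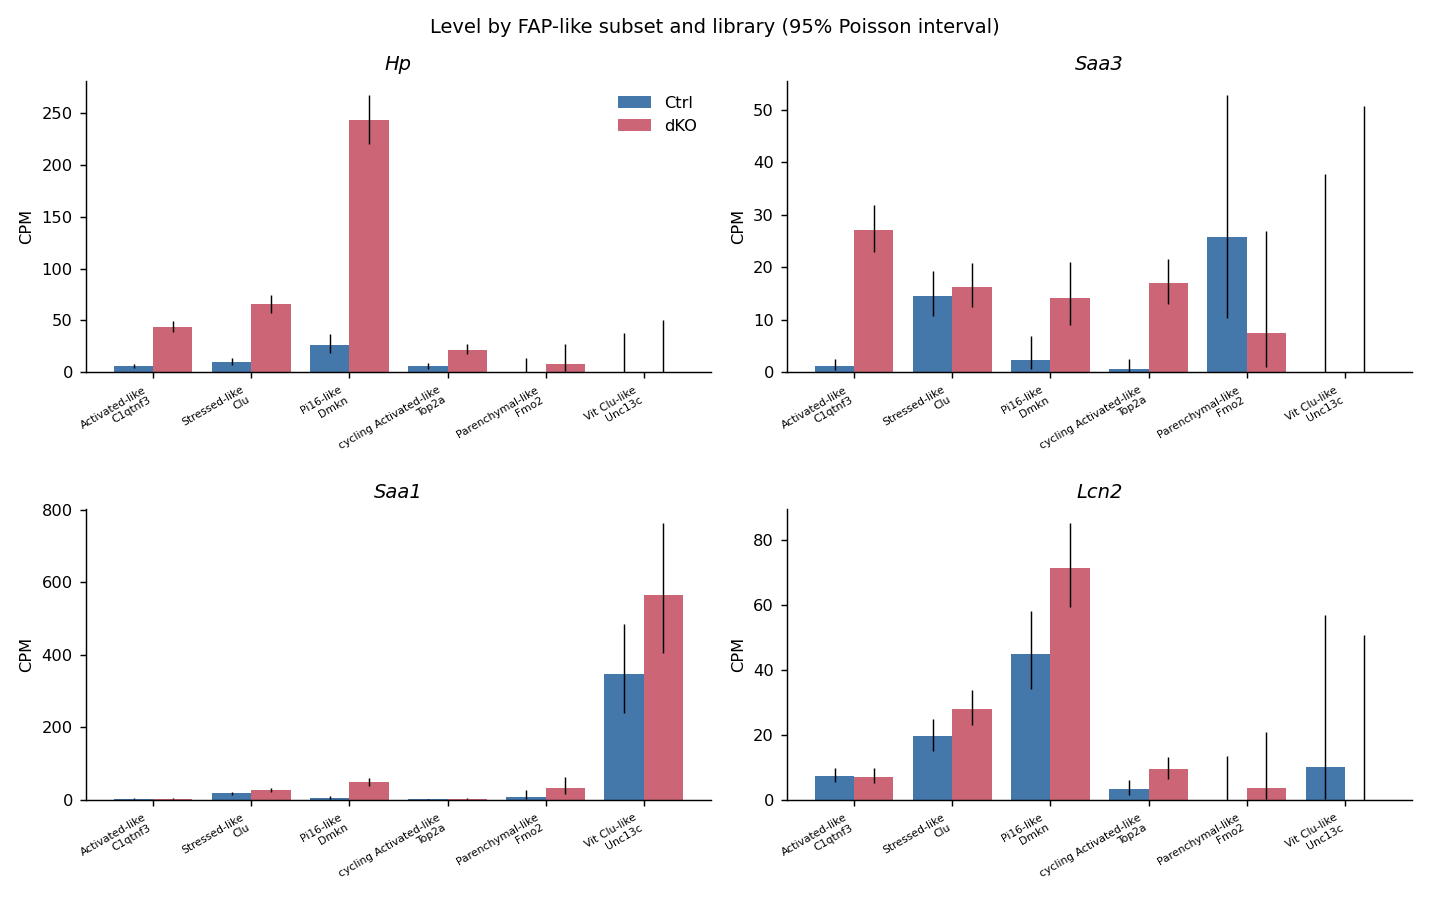
Level of Hp, Saa3, Saa1 and Lcn2 in 6 FAP subsets, in CPM, for Ctrl and dKO, with exact Poisson 95% intervals. In Pi16-like cells Hp stood at 26.4 CPM in Ctrl and 243 CPM in dKO, where the highest cell held 146 of 415 UMIs.

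Some FAP-like cells held several of the 4 transcripts. At least 1 was present in 178 Ctrl cells (15.9%) and 227 dKO cells (19.3%), and at least 2 in 25 (2.23%) and 56 (4.77%). In dKO, 34 of 100 cells with Lcn2 held Hp (34.0%, 24.8 to 44.2), against 93 of 1074 cells without Lcn2 (8.66%, 7.05 to 10.5). Cells with Lcn2 were deeper, with a median of 14400 UMIs against 11850. With every cell thinned to 2000 UMIs the shares were 14.3% (5 of 35, 4.81 to 30.3) and 3.96% (43 of 1085, 2.88 to 5.30), with overlapping intervals. In Ctrl they were 16.3% (13 of 80) and 5.38% (56 of 1040) unthinned, and 5.26% (1 of 19) and 1.83% (19 of 1038) thinned. Hp was also found in 14 of 41 dKO cells with Saa1 (34.1%) and in 9.97% of those without it, but in Ctrl in 3 of 40 (7.5%) and in 6.11%. Hp was found in 7 of 24 dKO cells with Saa3 (29.2%) and in 10.4% of those without it. After thinning, Hp was left in 3 of 17 dKO cells with Saa1 and in 1 of 13 with Saa3. The 3 dKO cells with most Saa3 (62, 44 and 37 UMIs) held no Hp, Saa1 or Lcn2, whereas the cell at rank 6, with 20 Saa3 UMIs, held 109 of Hp, 5 of Saa1 and 13 of Lcn2. In the 11 dKO cells with at least 5 Saa3 UMIs Hp stood at 696.5 CPM, with 83.9% of it in 1 cell, against 55.8 CPM in dKO cells without Saa3.

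The 30 dKO cells with at least 5 Hp UMIs were described further, with genes named after their values were seen. Among them 12 were Pi16-like, 7 Activated-like, 4 Stressed-like and 2 cycling Activated-like. Complement C3 stood at 3994 CPM in them, against 1157 CPM in the 1047 dKO FAP-like cells without Hp. Cxcl13, a chemokine that attracts B cells, stood at 1075 CPM against 17.5 CPM, in 14 of the 30 cells and with 39.7% of its UMIs in 1 cell. Ccl19, which attracts T cells and dendritic cells, stood at 264 and 49.8 CPM, C4b at 806 and 222 CPM, Serpina3n at 885 and 354 CPM, and Lbp at 575 and 200 CPM. In the 8 Ctrl cells with at least 5 Hp UMIs C3 stood at 1784 CPM, against 801 CPM in Ctrl cells without Hp, but Ccl19 had only 3 UMIs (16.0 CPM against 35.1 CPM), and all 37 UMIs of Cxcl13 were in 1 cell. The 30 cells had Dcn at 9790 CPM and Pdgfra at 329 CPM, with no Ptprc UMI and 1 of S100a8. Their median depth was 15850 UMIs against 11560. Pi16-like cells, 12 of the 30, were 13.3% of all dKO FAP-like cells, and Cxcl13 was among the leading genes of a FAP-like cluster with Pi16 and Dpp4. The profile was not particular to Hp. In dKO cells with at least 5 UMIs of Saa1, Lcn2 or Saa3, Cxcl13 stood at 2262, 1490 and 696.5 CPM. C3 stood there at 4216, 4114 and 2518 CPM.

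Other acute phase genes were read in the same FAP-like cells from a list of 33, of which 15 had at least 100 UMIs. Of these 15, 2 were at least 2-fold higher in dKO, against 0.701% of all genes tested, and none was 2-fold lower. The median log2 ratio was 0.62, against -0.06 over all genes. The highest were angiotensinogen (Agt), at 29 and 93 UMIs and a log2 ratio of 1.63 (1.01 to 2.28), the pattern recognition molecule Ptx3, at 579 and 1254 CPM (log2 1.12), and complement C4b, at 130 and 252 CPM (log2 0.95). The lowest were the lipopolysaccharide co-receptor Cd14 (log2 -0.60), ceruloplasmin (Cp, 0.03) and the metalloreductase Steap4 (0.11). C3 stood at 869 and 1339 CPM and the metallothionein Mt1 at 2404 and 3684 CPM. Apcs, Crp, Fga and Fgb of the list had 0 UMIs in both libraries. Hpx had 5 and 11 UMIs, A2m 11 and 2, Itih3 6 and 1, and Fgg 0 and 2.

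A list of 6 genes that fall in the hepatic acute phase response was read in the same way. Alb, Ttr and Serpina6 had 0 UMIs in FAP-like cells of both libraries, and Apoa1 had 3 and 7. The 2 with at least 100 UMIs were the retinol carrier Rbp4, at 33.2 and 64.8 CPM (log2 0.96), and transferrin (Trf), at 26.0 and 27.9 CPM (log2 0.10). Neither was past 2-fold.

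Among 8 cytokines that induce acute phase genes, 3 reached 100 UMIs in the FAP-like class. Il11 had 81 and 233 UMIs, a log2 ratio of 1.47 (1.10 to 1.86), with 26.6% of the dKO UMIs in 1 cell, and was the only one past 2-fold higher, against 0.701% of all genes tested. Lif had a log2 ratio of 0.83 and Il6 of 0.35. Il6 stood at 163 and 207 CPM in FAP-like cells and at 280 and 421 CPM in EC-like cells, and FAP-like cells held 65.2% and 85.8% of its UMIs. Oncostatin M (Osm), which signals through gp130 with the receptor Osmr, came mainly from MO/MP-like cells, at 59.8 CPM in Ctrl and 87.0 CPM in dKO. Il1b stood there at 350 and 618 CPM and Tnf at 65.9 and 125 CPM. In neutrophil-like cells Il1b stood at 1500 and 2021 CPM, Tnf at 143.6 and 305.5 CPM and Osm at 180.3 and 98.56 CPM. Dendritic cell-like cells had Il1b at 1164 and 1415 CPM.

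All 15 genes listed for cytokine receptors and signal transduction reached 100 UMIs in the FAP-like class, and none was past 2-fold in either direction. Their median log2 ratio was 0.24. The highest were the interleukin-1 receptor Il1r1 (0.56), Nfkb1 (0.56) and Cebpb (0.40), and the lowest were the leukemia inhibitory factor receptor Lifr (-0.73), the NF-kB subunit Rela (0.02) and Stat3 (0.08). Socs3, a target of STAT3, stood at 325 and 382 CPM.

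Of 9 receptors and partners of the 4 proteins, 5 reached 100 UMIs in the FAP-like class and none was past 2-fold. Hmox1, which breaks down heme, had a log2 ratio of 0.47, the serum amyloid A receptor Tlr2 of 0.39 and P2rx7 of 0.07. The lowest were Slc22a17, a receptor for Lcn2 (-0.44), and Tlr4 (0.00). Cd163, the receptor for Hp bound to hemoglobin, was a transcript of MO/MP-like cells, at 28.9 and 32.7 CPM, with 1 and 6 UMIs in FAP-like cells. The serum amyloid A receptor Fpr2 was highest in neutrophil-like cells, at 309 and 493 CPM.

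**Figure D5:**
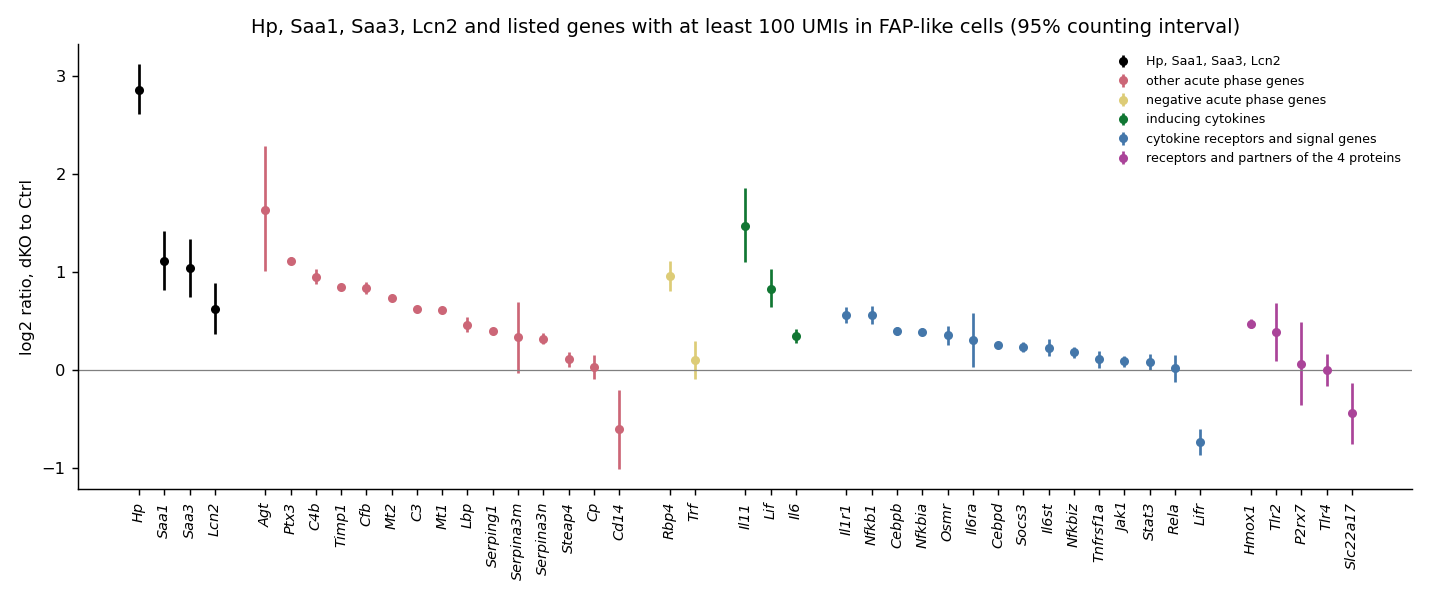
Log2 ratio of dKO to Ctrl in FAP-like cells for the 4 genes and for the genes of 5 lists that reached 100 UMIs. Points are genes, bars are exact 95% counting intervals, and the vertical axis is the log2 ratio. Other acute phase genes have a median of 0.62 and cytokine receptor and signal genes a median of 0.24.

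Markers of other cells were counted in the same FAP-like cells. The 10 neutrophil markers, all detected, summed to 92.1 CPM in Ctrl and 61.3 CPM in dKO, of which G0s2 alone made up 50.8 and 52.6 CPM. S100a8 had 208 and 24 UMIs and S100a9 had 248 and 35. For every 100 UMIs of S100a8, neutrophil-like cells held 11.5 UMIs of Lcn2 in Ctrl and 15.6 in dKO, whereas FAP-like cells held 94.7 and 1312. For Hp these values were 1.60 and 1.68 in neutrophil-like cells and 70.2 and 4583 in FAP-like cells. The 14 MO/MP markers, all detected, summed to 83.8 and 63.1 CPM. Of 6 hepatocyte markers, Alb, Ttr, Serpina1a and Fgb were at 0 and the sum was 0.95 and 1.41 CPM. Of 6 adipocyte markers the sum was 0.32 and 0.55 CPM, with Adipoq, Cidec, Lep and Retn at 0 in dKO. Of the 5 mesothelial markers listed in the files Upk3b and Lrrn4 were at 0 in dKO, and the sum of 4.81 and 11.7 CPM was mainly Wt1 (61 and 181 UMIs), whose part in the results was not tested.

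The genes whose levels were most like those of each of the 4 were sought over 24 sums, 12 classes or clusters in 2 libraries, by Pearson's r of log2(CPM + 1). The sums share their library and differ in depth, and r is given as a description. For Hp they were Pygl (0.91), Gsdme (0.88) and Cd177 (0.86), and for Lcn2 Ngp (0.86), Gsdme (0.86) and Wfdc21 (0.83). For Saa3 they were Mmp27 (0.79), Rhou (0.74) and Slpi (0.72), and for Saa1 Smoc1 (0.96), Gm16364 (0.91) and 8430436N08Rik (0.91).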

How the data were processed

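Single cells of hind limb muscle were dissociated with collagenase and dispase, sorted for live cells and captured with 10x Chromium, as 1 Ctrl and 1 dKO library. The deposited values are raw UMI counts per gene and cell, which the authors made with Cell Ranger. The submitters' processing notes name Cell Ranger 7.0.0, Seurat 4.3.0, Cufflinks and mm10, whereas the matrix headers name version 3.0.2, and which of them made the counts was not settled here. No mitochondrially encoded gene is listed, so the study's mitochondrial filter could not be applied. Counts per strand are not given in the sources used here.

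From these counts, cells with under 500 genes were left out (192 Ctrl, 154 dKO). The 7.5% with the highest Scrublet score per library were removed as doublets (325 and 250), by rank because the caller's own threshold marked almost none. Cells were clustered in Seurat 5.3.0 (R 4.3.3) on 2000 variable genes without the 4 genes, with 40 components at resolution 0.8, which gave 24 clusters. FAP-like cells were clustered again with 20 components at 0.4. The levels of 1 resulting subset are not reported here. Clusters were named from 22 marker lists, and the details of the naming rule were set after the clusters were seen. A cluster led by Ear2 stayed unnamed because it carried leading genes of another class. UMIs were summed per class and library and divided by the class total. Python 3.11.15, scanpy 1.11.5, numpy 2.4.6, scipy 1.17.1 and pandas 2.3.3 were used, and the scripts were tested on simulated data.

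With 1 library per group no p-value was computed. A 2-fold difference among genes with at least 100 UMIs over both libraries served as the size rule. Poisson, binomial and conditional 95% intervals cover counting error only, since mice within a pool cannot be told apart. A count of 0 was read as allowing up to 3 counts. The 4 genes and all gene lists were chosen with earlier results of these data known. Within each list the 3 highest and 3 lowest genes with enough UMIs were named, and genes outside that rule were named after their values were seen. Promoter stretches came from RefSeq (GRCm38.p6), with entries for Saa3, Saa1 and Lcn2, and gene positions from GENCODE M21.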

Additional observations from a re-analysis of the deposited data

Results flagged for a closer look

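For 3 genes the direction of the difference between libraries was opposite in FAP-like and MO/MP-like cells. The log2 ratio of dKO to Ctrl was larger in FAP-like than in MO/MP-like cells by 3.33 for Hp, by 2.24 for Saa3 and by 1.64 for Lcn2. With 1 library per group these differences between classes were not tested. The FAP-like direction itself turned for Lcn2 with no doublets removed (log2 ratio -0.37) and for Saa3 with cells thinned to 2000 UMIs (-0.96). For Saa3 the MO/MP-like level in Ctrl rested in part on 1 cell with 455 of 1102 UMIs.

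Cells removed as doublets, which enter no comparison, held 228 Saa3 UMIs in the dKO library and 89 in Ctrl. A single removed dKO cell held 221 of them. It was classed with FAPs when no doublets were removed, and among its 11488 UMIs were 107 of Dcn, 10 of Pdgfra, 127 of Col1a1 and 0 of Ptprc.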

How the results depend on the processing

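No paired analysis was possible because each group was 1 library. Of the recomputed values 126 stayed within their counting interval or count limit, 41 moved and 2 reversed, and the cause was not tested except where the construction shows it. Without the 10 leading cells of each library, an alternative chosen after seeing the data, the log2 ratio was 2.22 for Hp and 2.27 for Saa3. Without the single leading cell it was 1.73 for Saa3. With no doublets removed it was 1.78 for Saa3 and -0.37 for Lcn2, and the FAP-like share of UMIs was 71.0% for Hp and 62.3% for Saa3 in dKO, and 5.87% and 16.6% for Lcn2 in Ctrl and dKO. By the mean of the cells' CPM it was 0.063 for Saa3 and 0.21 for Lcn2, and with cells thinned to 2000 UMIs -0.96 for Saa3 and 0.35 for Lcn2. The number of genes at least 2-fold higher, 73 at a minimum of 100 UMIs, was 139 at 30 and 1233 at 1.

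Levels by FAP subset were recomputed under other clusterings only, and those of Pi16-like cells stayed within their limits. At resolution 0.2 the largest subcluster stayed unnamed. The name Parenchymal-like then covered only a cluster led by Fmo2, with 81 Ctrl and 84 dKO cells and a median of 2111 UMIs. Those cells had 0.0 and 7.65 CPM of Hp in Ctrl and dKO and 28.0 and 7.65 of Saa3. They had 0.0 of Saa1 in Ctrl, and 0.0 and 3.83 of Lcn2 in Ctrl and dKO. With the 4 genes kept for clustering, which put other cells under the same names, Hp in Ctrl and dKO was 6.46 and 39.1 CPM in Stressed-like and 14.0 and 0.0 in cycling Activated-like cells, and in dKO 37.8 in Activated-like and 93.4 in Vit Clu-like cells. Saa3 was then 1.22 CPM in Ctrl Stressed-like cells and 0.0 and 0.87 in cycling cells. Saa1 was 5.59 and 6.76 CPM in Stressed-like, 4.67 in Ctrl Parenchymal-like, 54.5 and 63.2 in Vit Clu-like and 0.0 in dKO cycling cells. Lcn2 was 10.4 and 13.0 CPM in Activated-like and 6.11 and 9.93 in Stressed-like cells, and in dKO 17.1 in Parenchymal-like and 0.87 in cycling cells. No separate cycling FAP-like class formed, so leaving it out gave no value. Pooled mice, 1 library per group and few positive cells limit all values.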
